A study of Arabidopsis thaliana with 22 samples.

Results

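The 12 bulk mRNA libraries of experiment 1 in this series compare the root of a MYB67 mutant of Arabidopsis thaliana with that of its wild type, and the genotype effect is described here across all genes. The members were chosen by their labels, as the 6 libraries labelled myb67 and the 6 labelled WT (wild type) of experiment 1, which are 12 of the 22 libraries of the series. The other 10 libraries, 5 of each genotype, form experiment 2. The mutant line is named myb67-1 in the growth protocol and stands in the Col-0 accession, and WT is Col-0. Seeds of both were grown together, untreated, for 14 days on medium with 1% agarose, and each library holds the uppermost 1.5 cm of primary root below the hypocotyl from about 40 pooled seedlings, with lateral roots cut away. The labels do not say where in MYB67 the allele lies, and the mutant is represented by 1 line.

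MYB67 encodes a transcription factor of the R2R3 type of the MYB family. In the upper root of a seedling of this age the outer cell layers are lost as the root thickens, and a new protective tissue, the phellem or cork, forms in their place. Phellem and endodermis walls carry suberin, a polyester of fatty acids, fatty alcohols, glycerol and ferulate whose monomers are made by fatty acid elongases, hydroxylases, acyl-CoA reductases and acyltransferases and exported by ABC transporters. The title of the series links MYB67 to the maturation of phellem cells, and the design text gives as its aim to find the genes the factor regulates.

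Total counts ran from 4.49 M to 12.3 M in the myb67 libraries and from 3.71 M to 17.7 M in the WT libraries. WT replicate 1 had the fewest counts, and 27.7% of them lay in the ribosomal RNA gene AT3G41768, against at most 0.505% in the other 11 libraries. WT replicates 3 and 6 stood apart by photosynthesis genes. The summed level of 30 such genes ran from 622 to 824 CPM in the myb67 libraries and was 2331 and 2852 CPM in WT replicates 3 and 6, against 805 to 926 CPM in the other 4 WT libraries. Levels are in CPM, the counts of a gene over the total counts of its library after TMM scaling of the totals, times 1e6. The groups overlapped in this sum, with myb67 replicate 1 (824 CPM) above WT replicate 2 (805 CPM), and differed in mean (exact permutation test over libraries, two-sided, p = 0.00433, adjusted over 11 such measures 0.0476). Summed markers of endodermis, root hairs, xylem, phloem, cambium, meristem, dividing cells and suberin did not pass (adjusted p from 0.226 to 0.972). All members of these marker lists had counts in at least 1 library. Because each library is bulk tissue, fewer cells of a type and less RNA per cell cannot be told apart.

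**Figure D1:**
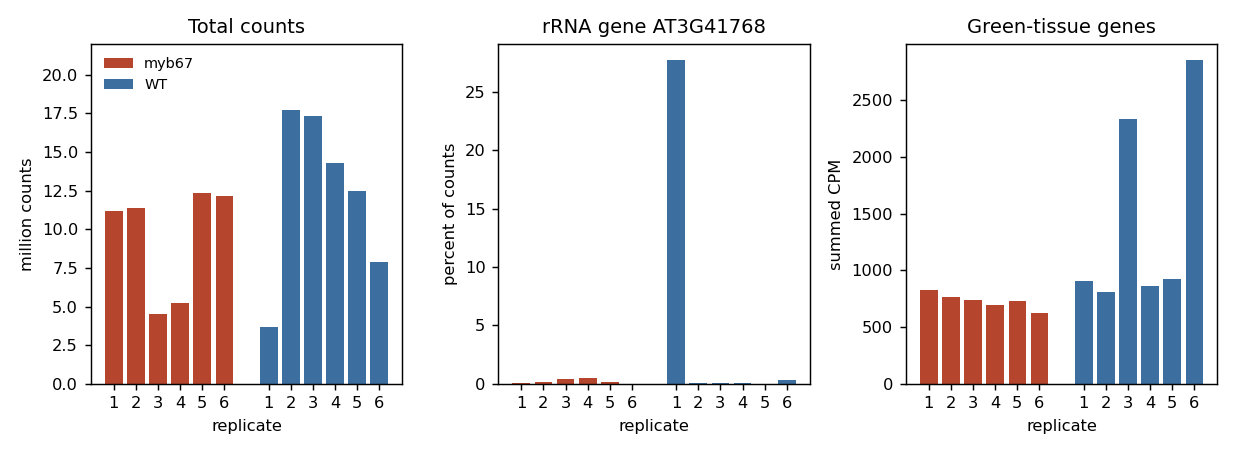
Total counts in units of M, share of counts in the ribosomal RNA gene AT3G41768 in percent, and summed CPM of 30 photosynthesis genes, 1 bar per library, with the 6 myb67 libraries on the left and the 6 WT libraries on the right. WT replicate 1 stands apart in the share of 27.7%, and WT replicates 3 and 6 in the sums of 2331 and 2852 CPM.

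MYB67 itself (AT3G12720, chr3:4043288-4044715 on the minus strand of TAIR10.1) was measured in every library and was higher in the mutant. Its levels were 14.2, 10.4, 10.8, 10.3, 11.9 and 9.72 CPM in myb67 replicates 1 to 6, against 6.68, 5.81, 6.09, 7.004, 6.44 and 6.45 CPM in WT replicates 1 to 6. Every myb67 library lay above every WT library. The log2 fold change of myb67 over WT was 0.82 (SE 0.11; edgeR quasi-likelihood test, Benjamini-Hochberg adjusted p = 0.000287), and it was 0.81 without WT replicates 3 and 6 and 0.83 without WT replicate 1. Without the position of the allele, the reads of the gene cannot check the labels, and the directions below are those of libraries labelled myb67.

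Of 20183 genes tested, 180 passed an adjusted p of 0.05 (0.892%), and these are the genes called here. They comprised 97 genes higher in myb67 (0.481%) and 83 lower (0.411%), while the median log2 fold change of all tested genes was -0.01. Most changes were small, with 86 of the 180 under 1.5-fold and 43 of at least 2-fold, 16 of them higher and 27 lower. In 140 of the 180 the myb67 and WT libraries did not overlap at all, 66 higher and 74 lower. Over all tested genes 232 did not overlap (1.15%), 107 of them higher (0.53%) and 125 lower (0.619%). An unadjusted p under 0.05 was reached by 1985 genes (9.84%). By annotation, 171 of the called genes were protein-coding and the others were 3 long non-coding RNAs, 4 other non-coding RNAs, 1 antisense RNA and 1 pseudogene. They were spread over the 5 chromosomes, with 0.752% to 0.969% of the tested genes of each called. Of the 180 called genes 39 (21.7%) share annotated bases with another gene of the table, against 29.98% of all tested genes. Strand use in counting was not given in the sources used here, so reads of overlapping partners cannot be told apart.

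**Figure D2:**
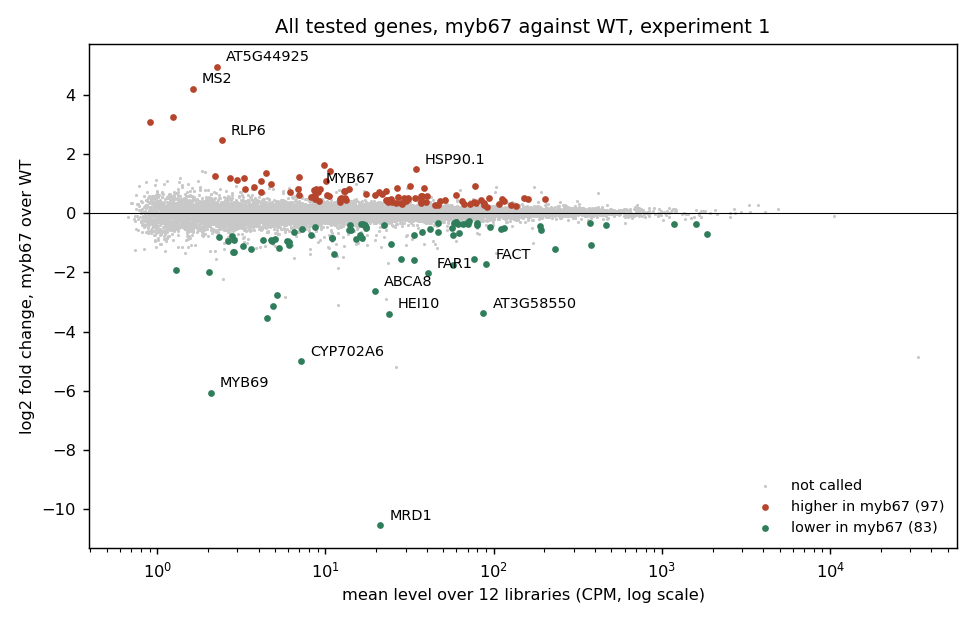
Log2 fold change of myb67 over WT against mean level over the 12 libraries (CPM, log scale) for the 20183 tested genes, 1 point per gene. The 97 called genes higher in myb67 and the 83 called lower are coloured, and the deepest falls, MRD1 at -10.54 and MYB69 at -6.07, are labelled together with other called genes of large change.

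The deepest falls were near losses of the transcript. MRD1 (AT1G53480), a gene of unknown function named for its response in a methionine over-accumulating mutant, had 1 count over all 6 myb67 libraries and 3197 counts over the 6 WT libraries. This put its myb67 level at 0.0403% of the WT level (95% exact interval 0.00102% to 0.225%, for counting error only). HEI10 (AT1G53490), a RING-type ubiquitin ligase known from meiotic crossover formation, overlaps MRD1 on the opposite strand and fell by 3.40 on the log2 scale (SE 0.08; edgeR adjusted p = 1.01e-14). HEI10 had 3.52, 4.23 and 4.58 CPM as lowest, median and highest level in the myb67 libraries, against 41.0, 43.9 and 44.4 CPM in the WT libraries. WT levels of both genes of this pair were nearly equal, at 42.3 CPM for MRD1 and 43.4 CPM for HEI10.

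The transcription factor gene MYB69 (AT4G33450), a relative of MYB67 known from secondary wall formation, had 3 counts over the myb67 libraries and 322 over the WT libraries, a myb67 level of 1.201% of WT (95% exact interval 0.246% to 3.54%). Its levels were 0.0880, 0, 0.220, 0, 0.0777 and 0 CPM in myb67 replicates 1 to 6, against 3.34, 3.84, 4.83, 4.83, 4.29 and 3.47 CPM in WT replicates 1 to 6. The cytochrome P450 gene CYP702A6 (AT4G15396) had 0, 0.434 and 0.704 CPM in myb67 libraries, against 13.2, 13.7 and 14.96 CPM in WT libraries (log2 fold change -4.99, SE 0.19). AT1G23200, of the pectin methylesterase inhibitor superfamily that acts on wall pectin, followed with -3.53, and AT5G43690, annotated as a P-loop nucleoside triphosphate hydrolase, with -3.13. BAS (AT1G78950), a cyclase that forms the triterpene beta-amyrin, had -2.77, and the ABC transporter gene ABCA8 (AT3G47790) had -2.63. The 12 largest falls among called genes of at least 1 CPM closed with FAR1 (-2.03), the heat shock factor gene HSFB3 (AT2G41690, -2.003) and the ABC transporter gene ABCG38 (AT3G30842, -1.94). In all 12 every myb67 library was below every WT library, and without WT replicates 3 and 6 the largest adjusted p among them was 0.0204, that of ABCG38.

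A second group of falls concerned genes with abundant transcripts. The lipid-transfer protein gene AT3G58550, whose family carries lipids outside the cell, had 13.1, 14.2 and 19.5 CPM in the myb67 libraries, against 139, 159 and 176 CPM in the WT libraries (log2 fold change -3.39, SE 0.09; edgeR adjusted p = 7.27e-14). Its span overlaps AT3G58540. A second member of the family, AT2G18370, had 36.1, 38.6 and 41.4 CPM, against 107, 112 and 127 CPM in WT (-1.56, SE 0.06; edgeR adjusted p = 1.09e-11). Next to AT2G18370 on chromosome 2, on the opposite strand and without overlap, the alpha/beta hydrolase gene AT2G18360 fell by the same amount, with 14.4 ± 1.64 CPM in myb67 and 41.9 ± 2.80 CPM in WT (SD, n = 6 each; log2 fold change -1.56). AT2G18360 was singled out after its values were seen.

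The receptor-like kinase gene SUB (AT1G11130), also known as STRUBBELIG and SCRAMBLED for its part in placing epidermal cell fates, had 12.99, 17.2 and 18.22 CPM in myb67, against 43.9, 51.1 and 55.3 CPM in WT (-1.58, SE 0.08). AT5G37990, a methyltransferase gene that uses S-adenosylmethionine, had 242 ± 14.5 CPM in myb67 and 512 ± 61.4 CPM in WT (SD, n = 6 each; -1.08, SE 0.07). The peroxidase gene AT2G38390 averaged 140.1 ± 15.8 CPM in myb67 and 321 ± 34.9 CPM in WT (SD, n = 6 each; -1.19, SE 0.08). The groups did not overlap in any of these genes.

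**Figure D3:**
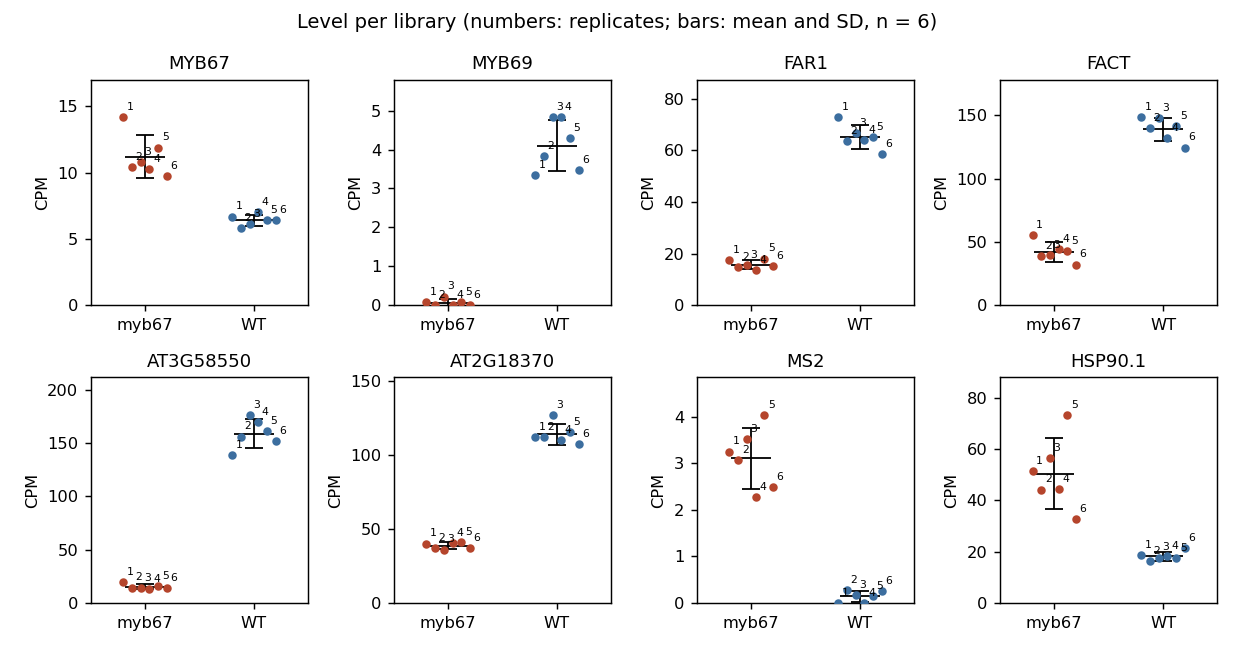
CPM of 8 genes in each library, with 6 myb67 points left of 6 WT points, replicate numbers beside the points, and bars for the mean and SD. MYB67, MS2 and HSP90.1 are higher in every myb67 library than in any WT library, and MYB69, FAR1, FACT, AT3G58550 and AT2G18370 are lower.

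The largest rises among called genes of at least 1 CPM started from low WT levels. AT5G44925, an uncharacterized locus, had 2.95, 4.63 and 5.70 CPM in the myb67 libraries, against 0, 0.1003 and 0.219 CPM in the WT libraries, where it had at most 4 counts per library (log2 fold change 4.94, SE 0.34; edgeR adjusted p = 7.33e-08). MS2 (AT3G11980), a fatty acyl reductase of pollen wall formation from the same enzyme family as FAR1, had 2.28, 3.17 and 4.04 CPM in the myb67 libraries, against 0, 0.159 and 0.274 CPM in the WT libraries, where it had at most 5 counts per library (4.21, SE 0.33; edgeR adjusted p = 5.65e-07). The non-coding RNA AT4G04223 had a log2 fold change of 3.26, with at most 7 counts per WT library, and RLP6 (AT1G45616), a receptor-like protein gene, had 2.47. Fitted fold changes against so few counts depend on the prior count of the fit. In these 4 genes every myb67 library exceeded every WT library.

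Further rises of at least 2-fold included the chaperone genes HSP90.1 and AT5G51440, described below with the heat shock genes, and AT2G16586 (1.62), which encodes an uncharacterized protein. PBS3 (AT5G13320), an enzyme of salicylate synthesis, had 1.36 and overlapping groups, with 3.21, 6.41 and 9.15 CPM in myb67 and 1.15, 2.42 and 3.71 CPM in WT. Its call was lost without myb67 replicate 1, 2, 3 or 5 or WT replicate 4 or 5 (edgeR adjusted p at most 0.0760). RR16 (AT2G40670), a type A response regulator of cytokinin signalling, had 1.25, the desiccation-like gene AT3G62730 had 1.22, TIN1 (AT5G64510), known to be induced by tunicamycin, had 1.19, and the MADS-box gene AGL46 (AT2G28700) had 1.18. Without WT replicates 3 and 6, RR16 and AGL46 kept their size (1.23 and 1.11) and missed the threshold (edgeR adjusted p = 0.0662 and 0.055).

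Among abundant genes the called rises of smallest p were mostly below 2-fold. The chaperone gene HSP70 and the DUF761 gene AT4G04990 both had 0.92. The disease resistance type gene AT3G14470 had 0.59, the receptor-like kinase gene AT1G07550 had 0.47, and the non-coding RNAs AT2G44255 and AT2G37362 had 0.58 and 0.50. AT2G37362 shares its span with the suberin transporter gene ABCG2, and AT2G44255 with AT2G44260, a gene of the DUF946 family that was called with 0.57. AT1G07550 had very even levels, 35.4, 35.98 and 37.0 CPM in myb67 and 24.4, 25.2 and 29.7 CPM in WT.

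The suberin genes did not move as a block. Of 24 genes that make or export suberin monomers, 3 fell, 1 rose and 20 did not pass, and their median log2 fold change was 0.06. In sign, 17 of them were positive and 7 negative. Over all tested genes 0.481% were called higher and 0.411% lower, shares that also belong beside the list counts below. Both large falls of the suberin list belonged to the fatty alcohol branch. FAR1 (AT5G22500, chr5:7470328-7474133 on the plus strand), an acyl-CoA reductase that forms primary fatty alcohols, had 17.43, 14.9, 15.4, 13.5, 18.03 and 15.3 CPM in myb67 replicates 1 to 6, against 72.7, 63.5, 66.7, 64.1, 65.2 and 58.5 CPM in WT replicates 1 to 6 (log2 fold change -2.03, SE 0.07; edgeR adjusted p = 9.28e-12). FACT (AT5G63560, chr5:25449311-25451419 on the plus strand), which esterifies caffeate with fatty alcohols, had 55.6, 38.8, 39.6, 44.3, 42.6 and 32.1 CPM in myb67 replicates 1 to 6, against 148, 140.1, 148, 132, 141 and 124 CPM in WT replicates 1 to 6 (-1.72, SE 0.10; edgeR adjusted p = 6.32e-09). Both genes showed 2 well separated groups of libraries. FAR4 (AT3G44540), a second reductase, fell less, with 64.6 ± 4.04 CPM in myb67 and 77.8 ± 5.96 CPM in WT (SD, n = 6 each; -0.27, edgeR adjusted p = 0.0416). Its call was lost when 9 of the 12 libraries were left out in turn, and without WT replicates 3 and 6 (edgeR adjusted p = 0.112). It held only without myb67 replicate 5, WT replicate 1 or WT replicate 6. FAR5 (AT3G44550), the third reductase of the suberin set, had -0.01 (SE 0.09; edgeR adjusted p = 1).

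The 1 rise of the list was ABCG2 (AT2G37360), a half-size transporter required for the suberin barrier, with 177, 185 and 199 CPM in myb67, against 119, 131 and 158 CPM in WT (0.49, SE 0.06; edgeR adjusted p = 0.000287). Its relatives ABCG6, ABCG20 and ABCG1 had 0.05, 0.06 and 0.08 and did not pass. Several genes of the acid and glycerol branches lay just outside the threshold. GPAT5 (AT3G11430), the acyltransferase that links fatty acids to glycerol, had 0.28 (edgeR adjusted p = 0.0551) and groups that did not overlap, the hydroxylase gene CYP86A1 (AT5G58860) had 0.24 (0.0887), and the elongase gene KCS2 (AT1G04220) had 0.78 (0.0906).

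Calls in this list depended on WT replicate 1. KCS2 had 81.7, 34.6, 33.6, 38.0, 41.3 and 55.5 CPM in WT replicates 1 to 6, so replicate 1 lay among the myb67 libraries (66.4, 79.4, 99.5, 92.0, 81.6 and 47.9 CPM), and without it KCS2 had 0.94 and passed (edgeR adjusted p = 0.00473). CYP86A1 likewise passed without that library (0.27, edgeR adjusted p = 0.0252), and the list then counted 3 higher and 3 lower. With all libraries, limma-voom and DESeq2 each called 3 of the list as higher. KCS2 also passed without myb67 replicate 6, and GPAT5 without myb67 replicate 4. Without WT replicates 3 and 6 all of these genes moved further from the threshold. There GPAT5 had 0.25 (edgeR adjusted p = 0.234), CYP86A1 0.18 (0.453) and KCS2 0.77 (0.230). Summed over the suberin marker genes, WT replicate 1 had 2757 CPM, above the 2370 to 2548 CPM of the myb67 libraries and the 2260 to 2488 CPM of the other WT libraries. The other members, among them CYP86B1, the feruloyl transferase gene RWP1 (also ASFT, AT5G41040), KCS1, KCS20, LACS2, GPAT7 and the GDSL-type genes AT1G74460, AT5G37690 and AT2G23540, had log2 fold changes of -0.22 (ABCG11) to 0.23 (KCS20) and did not pass.

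Of 16 tested regulators of suberin, 3 rose, 0 fell and 13 did not pass (median 0.15), and MYB67 is 1 of the 3. The NAC factor genes NAC058 (AT3G18400) and NAC038 (AT2G24430) were the others. NAC058 had 34.2, 36.8 and 37.3 CPM in myb67, against 21.6, 26.2 and 28.2 CPM in WT (0.51, SE 0.07; edgeR adjusted p = 0.000426). NAC038 had 0.45 (edgeR adjusted p = 0.0175) and lost its call without myb67 replicate 2 or WT replicate 4 (adjusted p at most 0.0593) and without WT replicates 3 and 6 (0.104). The MYB factors known to promote suberin did not pass, with 0.29 for MYB9, 0.32 for MYB39, 0.28 for MYB93, 0.19 for MYB107, 0.12 for MYB41, 0.08 for MYB53, -0.06 for MYB92 and 0.08 for MYB36. MYB93 had 43.1 CPM in WT replicate 1 and 27.1 to 30.9 CPM in the other WT libraries, and it passed without WT replicate 1 (0.35, edgeR adjusted p = 0.0198). Without WT replicates 3 and 6 MYB93 had 0.21 and did not pass (edgeR adjusted p = 0.743).

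Neighbouring wall and barrier pathways gave few calls. Of 19 tested genes of cutin and wax, the polyester and lipids of the shoot surface, 2 rose and 0 fell, GPAT6 and the alpha/beta hydrolase gene AT4G24140. GPAT6 (AT2G38110), an acyltransferase of cutin synthesis, had 47.9, 48.9, 49.3, 52.1, 47.3 and 42.3 CPM in myb67 replicates 1 to 6, against 52.7, 25.0, 19.5, 24.8, 20.4 and 29.9 CPM in WT replicates 1 to 6 (0.85, edgeR adjusted p = 0.0137). Apart from WT replicate 1 the groups did not overlap, and without it the log2 fold change was 1.02 (7.88e-06). Without WT replicates 3 and 6 neither gene passed (GPAT6 0.0512, AT4G24140 0.0748). In the Casparian strip and endodermis list, 1 of 14 rose, the receptor kinase gene GSO1 (AT4G20140), which monitors the integrity of the Casparian strip, with 99.6, 107 and 121 CPM in myb67, against 68.9, 72.9 and 98.7 CPM in WT (0.52, SE 0.08). Of 22 genes of phenylpropanoids and lignin 0 passed. Of 12 flavonoid genes 1 fell, LDOX (AT4G22880), which forms anthocyanidins (-1.32, edgeR adjusted p = 0.011, and 0.09 without WT replicates 3 and 6). Of 23 genes of xylem and secondary wall only MYB69 passed, and the next lowest, MYB85, had -1.14 (edgeR adjusted p = 0.206). In the pollen wall list MS2 was the 1 called of 4 tested.

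The root triterpene genes, which make defence compounds from cyclized squalene, held 3 falls and 1 small rise among 21 tested (median -0.09). BAS and CYP702A6 were given above, and CYP716A1 (AT5G36110), an oxidase of triterpenes, had 2.01, 3.16 and 4.20 CPM in myb67, against 6.58, 7.42 and 8.17 CPM in WT (-1.19, SE 0.15). CYP702A5 (AT4G15393), at chr4:8804070-8807232, and CYP702A6, at chr4:8807483-8810512, lie side by side on the plus strand and went opposite ways. CYP702A5 had 95.5 ± 7.11 CPM in myb67 and 79.0 ± 5.79 CPM in WT (SD, n = 6 each; 0.28, edgeR adjusted p = 0.0451), and it kept its call only in the 3 fits without myb67 replicate 6, WT replicate 1 or WT replicate 4. The thalianol, marneral and lupeol cyclase genes THAS1, MRN1 and LUP1 had -0.18, -0.16 and -0.18 and did not pass.

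Heat shock chaperones, which hold or refold unfolded proteins, were the list with the most calls. The 35 lists were chosen with earlier results of these data known. Of 21 tested chaperone genes 6 rose, 0 fell and 15 did not pass (median 0.13), while 0.481% of all tested genes were called higher and 0.411% lower. The count was 7 without WT replicates 3 and 6, 5 without WT replicates 1, 3 and 6 and 5 to 7 in the fits without 1 library. HSP90.1 (AT5G52640), the stress-induced HSP90, had 51.4, 44.1, 56.3, 44.5, 73.2 and 32.7 CPM in myb67 replicates 1 to 6, against 18.6, 16.2, 17.7, 18.4, 17.3 and 21.3 CPM in WT replicates 1 to 6 (1.48, SE 0.15; edgeR adjusted p = 1.57e-05). HSP70 (AT3G12580) had 83.8, 98.6 and 120.1 CPM in myb67, against 46.9, 51.9 and 61.5 CPM in WT (0.92, SE 0.09). AT5G51440, of the small HSP20-like chaperones, had 12.5, 15.74 and 18.3 CPM in myb67, against 4.60, 5.80 and 6.47 CPM in WT (1.44, SE 0.12). In all 3 the groups did not overlap, and HSP90.1 ranged over 32.7 to 73.2 CPM in myb67 and over 16.2 to 21.3 CPM in WT.

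The disaggregase gene HSP101 (AT1G74310) had 0.74, Hsp70-2 (AT5G02490) 0.53 and the coactivator gene MBF1C (AT3G24500) 0.51. MBF1C lost its call without myb67 replicate 3, 4 or 5 or WT replicate 2, 4 or 5 (edgeR adjusted p at most 0.0855), and Hsp70-2 without WT replicates 3 and 6 (0.0516). The constitutive members HSC70-1, Hsp81.4 and HSP81-2 had 0.01, -0.01 and 0.15 and did not pass. Other members that did not pass ranged more widely. HSP18.2 had 0.01, Hsp70b -0.01, ROF2 -0.04, BAG6 0.10 and HSA32 -0.34, while HSP17.4 had 0.65 and Hop3 0.33. Of 18 tested heat shock factor genes, HSFB3 fell and the other 17 did not pass. HSFA2 (AT2G26150), a heat-inducible activator, had the highest value of these 17, 1.38 (SE 0.38; edgeR adjusted p = 0.133), and passed without WT replicates 3 and 6 (2.01, adjusted p = 0.0344). It had 2.46, 2.74, 3.96, 1.90, 3.89 and 1.93 CPM in myb67 replicates 1 to 6, against 0.371, 0.110, 1.65, 1.09, 1.07 and 1.98 CPM in WT replicates 1 to 6.

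**Figure D4:**
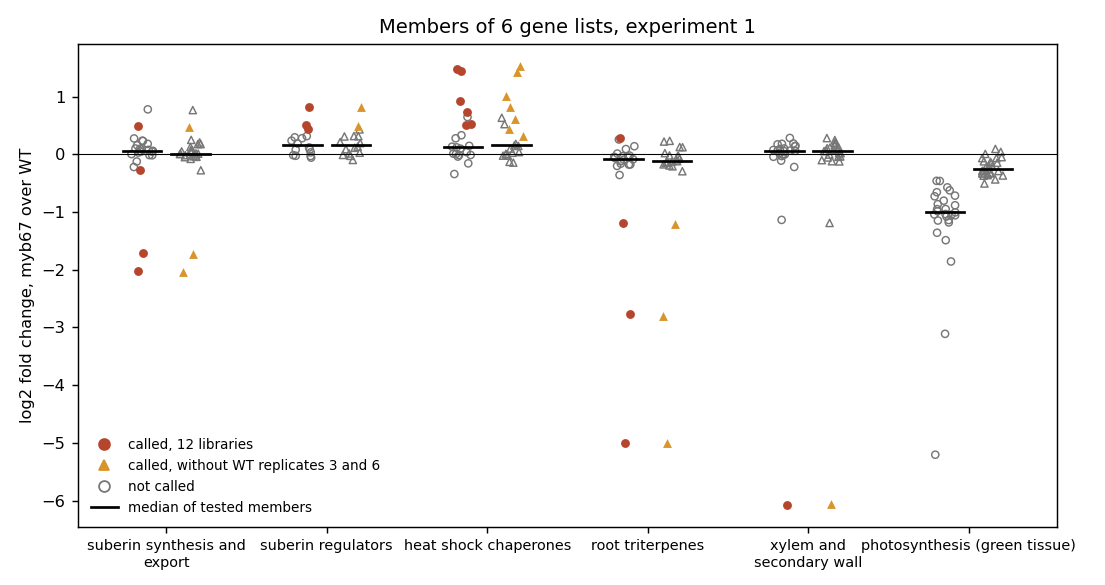
Log2 fold change of myb67 over WT for the tested members of 6 gene lists, 1 mark per gene, with circles for the fit of all 12 libraries and triangles for the fit without WT replicates 3 and 6; filled marks are called and lines give the median. The photosynthesis median lies at -1.005 with all libraries and at -0.26 without those 2, while FAR1, FACT, BAS, CYP702A6 and MYB69 are called in both fits.

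The values and calls of the photosynthesis genes depended on single WT libraries. All 27 tested members had negative log2 fold changes, their median was -1.005, and 0 of 27 passed. CAB2, a light-harvesting chlorophyll protein gene, had -5.20 with all libraries and 0.04 without WT replicates 3 and 6, and RBCS3B, a small subunit of Rubisco, had -3.11 and 0.09. Without those libraries the median was -0.26 and again 0 of 27 passed. Only CAB2, RBCS3B and PSAD-1 (0.008) were then above 0. All other tested members stayed negative, down to -0.51 for LHCB2.2. With WT replicates 3 and 6 kept, 3 of the list were called lower without WT replicate 1 (median -1.08) and 9 without WT replicate 2, by edgeR. The other 10 fits without 1 library called 0, DESeq2 called 1 and the fit over all 22 libraries called 2. Other lists with single calls were salicylate and pathogen defence (1 of 12 higher, PBS3), cytokinin response (1 of 10 higher, RR16), developmental cell death (1 of 11 higher, the DUF679 membrane protein gene AT4G18425 with 0.64) and the endoplasmic reticulum body (1 of 7 lower). The last was NAI1 (AT2G22770), the factor required for these beta-glucosidase bodies of roots and seedlings, with 70.6 ± 5.40 CPM in myb67 and 88.9 ± 6.76 CPM in WT (SD, n = 6 each; -0.34). All 7 members of that list had negative values, of which only NAI1 passed. The remaining 19 lists with 0 calls, which cover phloem, cambium, root hairs, meristem, cell division, protein folding in the endoplasmic reticulum, hypoxia, jasmonate, abscisic acid, auxin, iron, phosphate, nitrate, sulfur, glucosinolates, aquaporins, the clock, alternative respiration and touch response, had medians from -0.27 (sulfur starvation) to 0.24 (root hair and epidermis). The root hair list had 2 called higher without WT replicate 1 and 1 without myb67 replicate 1.

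Called genes also shared product families, picked here for their calls after the values were seen. Over all tested genes 0.892% were called, 0.481% higher and 0.411% lower. Only families with at least 3 calls were listed. The larger ones held similar numbers of calls among more genes, so a smaller share of each was called than in the families described next. Their calls were 4 of 150 alpha/beta hydrolase genes, 3 of 202 RING/U-box genes and 3 of 105 C1 domain genes. Leucine-rich repeat kinase genes had 3 of 104 and major facilitator genes 3 of 98. Of 23 tested genes annotated as polyketide cyclase or lipid transport proteins of the Bet v 1 type, 5 fell and 0 rose (median of the 23 -0.07). AT4G23680 had 23.96, 25.5 and 29.6 CPM in myb67, against 83.8, 88.9 and 91.6 CPM in WT (-1.77, SE 0.06; edgeR adjusted p = 2.69e-12). Its close neighbour AT4G23670 was far more abundant, with 1033 ± 47.3 CPM in myb67 and 1324 ± 88.7 CPM in WT (SD, n = 6 each; -0.36). AT3G26460, AT3G26450 and AT4G14060 had -0.66, -0.33 and -0.63. The related gene MLP34 (AT1G70850), annotated separately, averaged 1388 ± 70.2 CPM in myb67 and 1778 ± 96.7 CPM in WT (SD, n = 6 each; -0.36, edgeR adjusted p = 0.00282). These genes are similar in sequence family, and the treatment of reads that map to several genes was not given in the sources used here. AT3G26450 lost its call in 5 of the 12 fits without 1 library (myb67 replicates 1 and 2, WT replicates 3, 4 and 5; adjusted p at most 0.0664) and overlaps AT3G26440.

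Of 45 tested lipid-transfer protein genes 3 fell and 0 rose, AT3G58550, AT2G18370 and EARLI1 (AT4G12480). EARLI1 had 10.7, 16.7 and 18.9 CPM in myb67, against 19.9, 30.8 and 57.9 CPM in WT (-1.03), with 57.9 CPM in WT replicate 1, and lost its call without myb67 replicate 1, 5 or 6 or WT replicate 4 or 6 (edgeR adjusted p at most 0.0664). Of 51 peroxidase genes 2 rose (AT2G35380 with 0.35 and AT1G68850 with 0.33) and 2 fell (AT2G38390 with -1.19 and AT5G14130 with -0.87). Of 44 acyltransferase genes of the HXXXD type, the family of FACT, 2 rose and 2 fell. AT1G68850 lost its call in 5 of the 12 fits without 1 library (myb67 replicates 2 and 5, WT replicates 3, 4 and 5; adjusted p at most 0.0600). Of 23 HSP20-like genes 3 rose, AT5G51440, AT2G29500 (0.50) and AT2G19310 (0.55), the last with its call lost in 7 of the 12 fits (all but those without myb67 replicate 3, 4 or 6 or WT replicate 1 or 6; adjusted p at most 0.116).

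The promoters of the called genes were searched for letters that R2R3-type MYB factors are known to bind in other genes, the AC elements, of which the first is ACCTACC, the second has the letters ACCAACC and the third has the letters ACCTAAC, in 250 bases before to 50 bases after the annotated start, on both strands. ACCTACC was found in 6 of 83 promoters of genes lower in myb67 (7.23%), in 3 of 97 of genes higher in myb67 (3.09%) and in 287 of all 20100 promoters read (1.43%). For any of the AC elements the shares were 13.3% (11 of 83), 9.28% (9 of 97) and 7.46% (1499 of 20100). GGTNGGT, which read on the other strand holds the first and the second of these, stood in 14.5% of lower, 10.3% of higher and 7.79% of all promoters. The heat shock element core GAANNTTC stood in 7.23% of lower, 12.4% of higher and 11.5% of all. A match is a run of letters and not a binding site, and no test was made on these shares.

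The 9 ACCTACC matches in called genes are printed with 11 bases on each side, read 5′ to 3′ on the strand of the gene, from RefSeq TAIR10.1, with the match in capitals (GGTAGGT where it lies on the other strand); they are shown so that the letters around the matches can be compared. Genes lower in myb67 come first.
AT5G43690: gactaatatgtACCTACCagaaattaaat
PROPEP1: ctgagtcatcaACCTACCtaaagccaaac
AT5G10770: catgattcgacACCTACCtaatcagttta
HCHIB: atcaaaaacaaACCTACCaaatactgttt
XTH7: aatagaaaattGGTAGGTccaaaatcatt
NAI1: attattgctaaACCTACCggatcgggtaa
HA4: tgtgctttcttGGTAGGTaatatattaaa
AT5G67340: ttaaatacataACCTACCtaacaaggttt
ABCG2: aacttcctctcACCTACCcatttactttt

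They begin 37 to 199 bases before the start. The stretch of AT5G43690 lies at chr5:17545992-17546020 (plus strand), that of PROPEP1 at chr5:25936868-25936896 (plus), that of AT5G10770 at chr5:3405638-3405666 (minus), that of HCHIB at chr3:3964090-3964118 (minus) and that of XTH7 at chr4:17777527-17777555 (minus). The stretch of NAI1 lies at chr2:9684514-9684542 (plus), that of HA4 at chr3:17692475-17692503 (plus), that of AT5G67340 at chr5:26864347-26864375 (plus) and that of ABCG2 at chr2:15676058-15676086 (minus). Log2 fold changes of the 9 ran from -3.13 (AT5G43690) to 0.49 (ABCG2), with -1.08 for PROPEP1, which encodes the precursor of a defence peptide, -0.52 for the protease gene AT5G10770, -0.49 for the chitinase gene HCHIB, -0.39 for the xyloglucan-modifying gene XTH7, 0.38 for the proton pump gene HA4 and 0.39 for AT5G67340. The upstream regions of FAR1, the deepest fall among suberin genes, and ABCG2, the rise in the same list, are given in full over 250 bases, FAR1 at chr5:7470078-7470327 (plus strand) and ABCG2 at chr2:15675921-15676170 (minus strand).
FAR1: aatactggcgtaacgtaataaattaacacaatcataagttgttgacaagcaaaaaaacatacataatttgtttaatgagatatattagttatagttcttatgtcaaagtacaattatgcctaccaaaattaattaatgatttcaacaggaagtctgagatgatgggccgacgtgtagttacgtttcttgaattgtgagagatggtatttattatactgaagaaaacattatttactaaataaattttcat
ABCG2: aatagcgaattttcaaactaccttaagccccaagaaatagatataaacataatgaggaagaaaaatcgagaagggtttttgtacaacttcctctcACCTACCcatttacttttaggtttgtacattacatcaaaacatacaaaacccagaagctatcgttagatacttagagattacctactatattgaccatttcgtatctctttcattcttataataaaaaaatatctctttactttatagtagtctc
The FAR1 window holds none of the AC elements, and the ABCG2 window holds ACCTACC 155 bases before the start.

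How many genes were called depended on the libraries kept, both those that stand apart and others. Without WT replicates 3 and 6, 127 of 20314 genes were called (0.625%), 64 higher and 63 lower. Of the original 180, all kept their sign, 115 were still called, and 0 of 180 moved its log2 fold change by more than 1.5 times. This fit reuses libraries of the main fit, so the kept signs are no separate check. The 65 lost calls comprised 43 of the 97 rises and 22 of the 83 falls. Whether they were lost through those libraries themselves or through the smaller number of libraries was not tested. Without WT replicate 1, 249 of 20298 genes were called (1.23%), 147 higher and 102 lower, with 175 of the 180 among them. Without all 3 of these libraries, 152 of 20484 were called (0.742%), with 126 of the 180 among them. Leaving out any 1 library gave 131 to 249 calls, with the fewest without WT replicate 5. A core of 102 genes, 45 higher and 57 lower, was called in every one of these fits, and it includes MYB67, MYB69, FAR1, FACT, MS2, ABCG2, HSP90.1 and HSP70.

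Experiment 2, with 5 libraries of each genotype, was used to read the same genes in other libraries. There 288 of 21683 genes were called between the genotypes (1.33%), in a fit over all 22 libraries. Its filter and its estimate of spread thus also used the libraries of experiment 1. The 180 calls of experiment 1 come from its own 12 libraries, and the fit over all 22 called 135 for experiment 1. The counts and shares below therefore compare unlike fits. Of the 180 genes called in experiment 1, 144 had the same sign in experiment 2 (81 of the 97 rises and 63 of the 83 falls), and 75 were also called there in the same direction, which is 41.7% of the calls of experiment 1 and 26.0% of those of experiment 2. Of the 43 genes changed at least 2-fold, 40 had the same sign and 30 were called again, while of the 86 changed less than 1.5-fold, 65 had the same sign and 29 were called again. The share of same signs over all tested genes was not counted, so the sign counts have no background beside them. MYB69 had -5.25 in experiment 2, CYP702A6 -4.59, FAR1 -1.92, FACT -1.43, AT3G58550 -3.20, AT2G18370 -1.79 and MS2 2.85, all called. Among the heat shock genes HSP90.1 had 0.36 there (edgeR adjusted p = 0.601), HSP101 0.26 (0.483) and HSP70 0.60 (0.026). In experiment 2, 1 of the 21 chaperones was called as higher, and for none of HSP90.1, HSP101 and HSP70 did the effect pass the test of a difference between the experiments. Photosynthesis genes had a median of 0.24 in experiment 2. The 24 genes that make or export suberin monomers had a median of 0.25 there, with 4 called higher and 2 lower. Over all genes tested in experiment 1 the median in experiment 2 was 0.004.

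**Figure D5:**
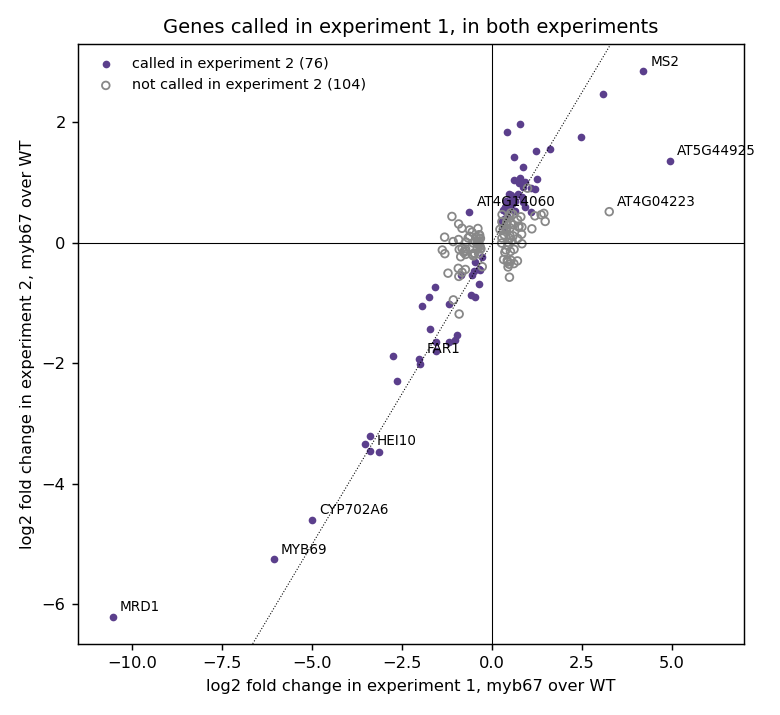
Log2 fold change of myb67 over WT in experiment 2 against that in experiment 1 for the 180 genes called in experiment 1, 1 point per gene, with the dotted line marking equal values. The 76 filled points were also called in experiment 2, 75 of them in the same direction, and AT4G14060 is the 1 in the opposite direction.

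The measured effect differed between the experiments for 15 of 21683 genes (0.0692%; edgeR test of the interaction, adjusted p under 0.05), of which 10 are among the 180. Values of experiment 1 are expected counts in steps of 0.5, and those of experiment 2 are whole counts. A differing genotype effect therefore cannot be told apart from a difference in how the values were made. AT5G37990 had -1.08 in experiment 1 and 0.02 in experiment 2, a difference of -1.10 (SE 0.21; edgeR adjusted p = 0.0338). Scaled over all 22 libraries, the papain-type protease gene AT4G11320 averaged 1441 ± 143 CPM in myb67 and 2367 ± 264 CPM in WT in experiment 1 (SD, n = 6 each), and 4083 ± 382 CPM in myb67 and 4047 ± 355 CPM in WT in experiment 2 (SD, n = 5 each). SUB was called lower in both, with -1.58 in experiment 1 and -0.73 in experiment 2, a difference of -0.84 (SE 0.15; edgeR adjusted p = 0.0157). CSLB01, a cellulose synthase-like gene, had -0.03 in experiment 1 and 1.68 in experiment 2, and MLP-300B, a myrosinase-binding protein-like gene, had 0.40 and 1.85. AT4G14060, of the Bet v 1 type genes above, was called lower in experiment 1 (-0.63) and higher in experiment 2 (0.52). Of these 15 genes 8 passed in the fit without WT replicates 3 and 6 of experiment 1, where 8 passed in all.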

How the data were processed

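Bulk mRNA-seq of pooled root segments was analysed for experiment 1, 6 myb67 and 6 WT libraries, with the 10 libraries of experiment 2 as a separate comparison. For experiment 1 the deposited table holds expected counts whose smallest step is 0.5 (28.2% to 34.6% of the values of a library, zeros included, are not whole), and they were rounded to whole numbers before testing. The deposited values of experiment 2 are whole-number counts. Per the submitters' processing notes, the tools named are STAR 2.7.10a, Trimmomatic 0.39, FastQC, HOMER and DESeq2 1.40.1, with the TAIR10 build and no role or order for any of them. The handling of strand and of multi-mapping reads was not given in the sources used here. The authors' own comparison table covers both experiments together and was not used here, and the count table has 0 columns of other samples.

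Of 33323 genes, 20183 passed the low-count filter of edgeR (filterByExpr). Libraries were scaled by TMM, with a factor of 0.728 for WT replicate 1 and 1.01 to 1.05 for the others, and tested with the edgeR quasi-likelihood F test, with Benjamini-Hochberg adjustment and a threshold of 0.05. The standard error is the log2 fold change divided by the square root of F, which is approximate. The difference between experiments was tested as an interaction over all 22 libraries, and the calls of experiment 2 came from a fit over the same 22. The main test ran in edgeR 4.0.16 under R 4.3.3, alternatives in DESeq2 1.42.0 and limma 3.58.1, and figures in matplotlib 3.10.9 under Python 3.11.15. Counts were also simulated with the means and depths of these 20183 genes and the trended spread of the fit. Spread particular to a gene and libraries that stand apart were not simulated, and changes were placed only in genes above 1 CPM. There 81% of 200 genes changed 1.5-fold and 98% of 200 changed 2-fold were called, with 15 false calls. The shares for the real libraries can be lower. Total counts of 3.71 M to 17.7 M set the precision, and intervals cover counting error only.

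Genes named are MYB67, the 12 largest rises and 12 largest falls among called genes of at least 1 CPM, the 6 further rises and 6 further falls of smallest p among called genes of at least 30 CPM, up to 4 called members of each list, all members of the suberin lists and the 5 genes whose effect differed between experiments with the smallest p, plus genes said to be chosen after their values were seen and uncalled list members given for comparison. The members and the 35 gene lists were chosen with earlier results of these data known. Gene names and positions come from RefSeq TAIR10.1, and 488 gene identifiers did not match it. Replicates are separately pooled samples per the labels. Replicate numbers do not pair the samples of experiment 1, since the same-number correlations ran from -0.209 to 0.0991. The samples of experiment 2 were not checked for pairing and were fitted as unpaired. No pair of replicates agreed within sampling noise (chi-square per gene at least 2.15). Alternatives were other scalings, filters and tools, a robust estimate of spread, a fit over all libraries, unrounded values, no ribosomal RNA genes, a replicate block and fits without libraries.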

Additional observations from a re-analysis of the deposited data

Results flagged for a closer look

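Of the results in the text, 19 had 1 library far from the other 5 of its group by Dixon's criterion at 95%, which chance alone meets in about 1 of 20 groups. Many groups were examined, so part of these 19 marks can be chance. No explanation was tested for any of them.

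WT replicate 1 was the library marked most often. It held 27.7% of its counts in AT3G41768, against 0.0223% to 0.288% in the other WT libraries. Among barrier genes it had 52.7 CPM of GPAT6 (other WT libraries 19.5 to 29.9), 82.4 CPM of the hydroxylase gene CYP86B1 (56.3 to 64.7), 43.1 CPM of MYB93 (27.1 to 30.9) and 79.4 CPM of the NAC factor gene NAC046 (40.6 to 51.6). It also had 33.0 CPM of AT3G14470 (28.2 to 29.8) and the lowest WT level of AT4G23670, 1153 CPM (1313 to 1400). Other WT libraries marked were replicate 2 with 97.2 CPM of the acyl-CoA synthetase gene LACS2, replicate 5 with 62.5 CPM of ABCG1 and replicate 3 with 12.1 CPM of CSLB01.

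Among the myb67 libraries, replicate 5 had 6.06 CPM of TIN1 and 273 CPM of AT2G23540, and replicate 3 had 2.86 CPM of MYB41. Replicate 4 had the lowest myb67 levels of KCS1 (93.5 CPM), the acyltransferase gene AT1G24430 (28.1 CPM) and AT1G68850 (73.2 CPM). Replicate 6 held the only MRD1 count (0.0803 CPM, others at 0) and the lowest level of MLP-300B (43.8 CPM), and replicate 1 had 13.2 CPM of AT5G14130.

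The measured genotype effect differed between the experiments for 15 genes by the edgeR interaction test. The log2 fold change of experiment 1 minus that of experiment 2 was above 0 for AT1G04500 (4.42), AT5G44925 (3.63), AT4G04223 (2.78) and the receptor-like kinase gene CRK31 (1.67). It was below 0 for CSLB01 (-1.70), MLP-300B (-1.44), the transporter gene AT1G68570 (-1.26), AT4G14060 (-1.14), AT5G37990 (-1.10), the MATE efflux gene AT5G44050 (-0.98), the trypsin inhibitor gene TI1 (-0.98), SUB (-0.84), AT3G26460 (-0.74), CYP707A1, which breaks down abscisic acid (-0.74), and AT4G11320 (-0.73). For CSLB01, MLP-300B and CYP707A1 the change of larger size, sign set aside, was that of experiment 2. Scaled over all 22 libraries, AT5G44925 averaged 0.109 CPM in WT and 4.56 CPM in myb67 in experiment 1. In experiment 2 its means were 1.02 and 2.66 CPM. AT4G04223 averaged 0.169 CPM in WT and 2.38 CPM in myb67 in experiment 1, and 2.49 and 3.58 CPM in experiment 2.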

How the results depend on the processing

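No named gene that passed the test changed sign under the alternatives run, while values near 0 that had not passed did (GPAT7, for example). Without WT replicates 3 and 6 the photosynthesis genes CAB2, RBCS3B and PSAD-1 also changed sign. DESeq2 called 283 genes (158 higher, 125 lower), against 180 (97 and 83) in edgeR, all 180 among them. Leaving out 1 library gave 131 to 249 calls, of which 63 to 147 were higher and 68 to 102 lower. The fewest were higher without WT replicate 5 (63) and myb67 replicate 5 (64), and the most without WT replicate 1 (147). Without WT replicates 3 and 6, 64 were higher. The difference between experiments was called for 8 genes without WT replicates 3 and 6, for 8 without WT replicates 1, 3 and 6 and for 6 with limma-voom, against 15. Among 110 summary values 98 stayed within 1.5 times or on the same side of the threshold. The fit over all 22 libraries called 135, 106 of them among the 180. Other scalings, filters and rounding gave 178 to 187, a robust estimate of spread in edgeR gave 188 and limma-voom gave 194. The cause of these shifts was not tested.

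The replicate number as a block gave 120 calls in experiment 1 (59 higher, 61 lower) and 516 for the difference between experiments. The numbers do not pair the samples: 0 of 6 myb67 libraries correlated best with the WT library of the same number.

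Of 71 named called genes, 57 stayed called in all 12 fits without 1 library. The low totals of WT replicate 1 and myb67 replicates 3 and 4 limit precision for genes of few counts, and 155 genes were called without these 3 libraries.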
